A study of Mus musculus with 4 samples.

Results

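Genes of the BCL2 family were measured in CD8 T cells from mouse spleen after exposure to 2,3,7,8-tetrachlorodibenzo-p-dioxin (TCDD), a persistent dioxin that binds the aryl hydrocarbon receptor (AHR). The family is represented here by 10 genes, Bcl2, Bcl2l1, Mcl1, Bcl2l11, Pmaip1, Bbc3, Bax, Bak1, Bid and Bad. Members were found as probe sets that the platform annotation assigns to exactly 1 of these symbols, which gave 24 probe sets for 9 genes, of 22626 probe sets and 12393 named genes in all. Bax was not analysed here. Every probe set is described, and a gene is represented by its probe set of highest mean across arrays, called its main probe set.

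The TCDD group had 2 arrays from female C57BL/6 mice aged 8 to 12 weeks that had been injected intraperitoneally with TCDD at 10 µg/kg 24 h before the spleen was taken. The DMSO group had 2 arrays from mice of the same strain, sex and age that had been injected by the same route with the solvent DMSO and killed after the same time. Cells of 4 mice of a group were pooled and the CD8 T cells were sorted to a purity above 99%, and their RNA was amplified before hybridisation to an Affymetrix array. The titles number the arrays of each group 1 and 2. The sources used here do not say what the number stands for or whether a group's arrays had separate pools of mice, so each p-value reflects only how far these arrays scatter, which may be technical variation. In sorted bulk cells, fewer cells that carry a transcript and less transcript in each cell cannot be told apart.

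The BCL2 family sets whether a cell releases cytochrome c from its mitochondria and dies. Survival members such as BCL2, BCL-XL (from Bcl2l1) and MCL1 hold the pore-forming members BAX and BAK in check, and BH3-only members such as BIM (from Bcl2l11), NOXA (from Pmaip1), PUMA (from Bbc3), BID and BAD bind the survival members or activate the pore formers. In T cells, BCL2 and MCL1 keep resting lymphocytes alive, and BIM removes them when cytokine support ends. NOXA binds mainly MCL1.

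The sequence upstream of the transcription start was read for these genes because a ligand-bound AHR binds DNA at sites that contain GCGTG. RefSeq starts (GRCm38.p6) were read for 9 of the 10 genes, at 15 starts in all. Pmaip1 was left out of this reading, so the counts below do not cover it. In the 250 bases before the start, GCGTG on either strand was found at 7 of the 15 starts and for 4 genes, Bcl2l11, Bcl2l1, Bbc3 and Bad. Of the 32851 starts in the RefSeq table, 28.2% held it and 2.77% held it at least 3 times. Starts of the same gene are not independent, and windows of Bbc3 overlap in part. The Bbc3 window with the most matches held GCGTG 4 times and lies inside the annotated gene. The windows of Bcl2l11 and Bad are shown because they hold the core 3 times each and lie wholly outside the annotated gene, and that of Bcl2 is shown as one without it. The core is in capitals, and reads GCGTG or, on the other strand, CACGC.
Bcl2l11, chr2:128125788-128126037, plus strand: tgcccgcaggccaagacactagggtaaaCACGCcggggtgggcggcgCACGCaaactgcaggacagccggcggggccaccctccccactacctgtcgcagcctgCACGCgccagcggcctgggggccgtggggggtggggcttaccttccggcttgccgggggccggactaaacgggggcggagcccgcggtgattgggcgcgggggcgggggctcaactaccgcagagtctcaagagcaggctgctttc
Bad, chr19:6941611-6941860, plus strand: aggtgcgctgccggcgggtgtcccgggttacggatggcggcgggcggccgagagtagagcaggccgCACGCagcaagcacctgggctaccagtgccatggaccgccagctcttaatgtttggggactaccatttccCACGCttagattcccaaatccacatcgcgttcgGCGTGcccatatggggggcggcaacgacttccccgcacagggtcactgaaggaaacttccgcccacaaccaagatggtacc
Bcl2, chr1:106714291-106714540, minus strand: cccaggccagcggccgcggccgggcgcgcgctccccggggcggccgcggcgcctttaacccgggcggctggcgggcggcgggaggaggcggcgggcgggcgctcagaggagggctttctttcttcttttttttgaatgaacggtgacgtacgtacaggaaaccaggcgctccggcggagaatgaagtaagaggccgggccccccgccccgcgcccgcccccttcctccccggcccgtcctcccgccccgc
The Bcl2l11 window also held the FOXO motif GTAAACA once, on the plus strand and overlapping the first core. That motif was in 3.17% of all windows and, among these genes, also in 1 window of Bbc3. The AP-1 motif TGANTCA, found in 6.75% of all windows, and the cyclic AMP response motif TGACGTCA, found in 1.55%, were in none of the 15, both strands read for each. These matches are letters in a window, and binding was not measured.

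Across the whole table the arrays with the closest values were those numbered 1. The SD of the log2 difference over all probe sets was 0.20 between TCDD and DMSO numbered 1 and 0.32 between those numbered 2. It was 0.34 within TCDD and 0.30 within DMSO. Across both labels it was 0.27 between DMSO 1 and TCDD 2 and 0.35 between TCDD 1 and DMSO 2. Of 13 genes of T cell and CD8 identity 11 were measured, all above the median level of 6.01, and Cd8a, which encodes the CD8 alpha chain, was between 8.17 and 9.46. Of 14 measured B cell markers 8 were above that median, and the list mean was between 6.79 and 7.25 on the 4 arrays. Over the 4 arrays the means of these B cell markers ran from 3.81 for the transcription factor gene Ebf1 to 10.80 for the immunoglobulin heavy chain gene Ighm. The invariant chain gene Cd74, which B cells and dendritic cells express strongly, measured 9.04 and 8.06 in TCDD 1 and 2. In DMSO 1 and 2 it measured 8.98 and 6.98.

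Values are log2 expression after robust multi-array averaging (RMA), differences are on the same log2 scale, and limits are 95% limits of limma's moderated fit. A difference was called when limma's p, Benjamini-Hochberg adjusted over all 22626 probe sets, was under 0.05. RMA values have no true zero, and near the low end they do not separate weak expression from none. Of the 24 probe sets 14 had a mean above the median level of all probe sets, and 7 of the 9 main probe sets did. Levels of different probe sets were not compared.

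With TCDD, no BCL2 family probe set passed the limma test. The count was 0 of 24, beside 0 of all 22626 probe sets (0%), and the lowest adjusted p was 0.997. At an unadjusted limma p under 0.05 there were 4 member probe sets, all of Mcl1, where 1.94% of all probe sets reached that level. The groups did not overlap for 9 of the 24, or 37.5%, with 4 higher and 5 lower in the TCDD arrays, beside 25.5% of all probe sets (13.5% higher and 12.0% lower). Probe sets of a gene share a transcript and are not independent, and 4 of those 9 belong to Mcl1. Over the 9 main probe sets the median difference was -0.16, with 2 above and 7 below 0. Over all 24 member probe sets it was -0.0425, with 10 above and 14 below 0. Over 12393 genes with 1 probe set each it was 0.01, with 6563 above and 5651 below 0. The median over all probe sets was also 0.01. For 5 genes, Bcl2, Bcl2l1, Mcl1, Bbc3 and Bad, both 95% limits of the main probe set lay within 1.5-fold of no difference. That of Bad lay below the median level, and limits of other Mcl1 probe sets went further. As a ratio of TCDD to DMSO they reached 1.79 for 1456381_x_at and 0.65 for 1416881_at.

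**Figure D1:**
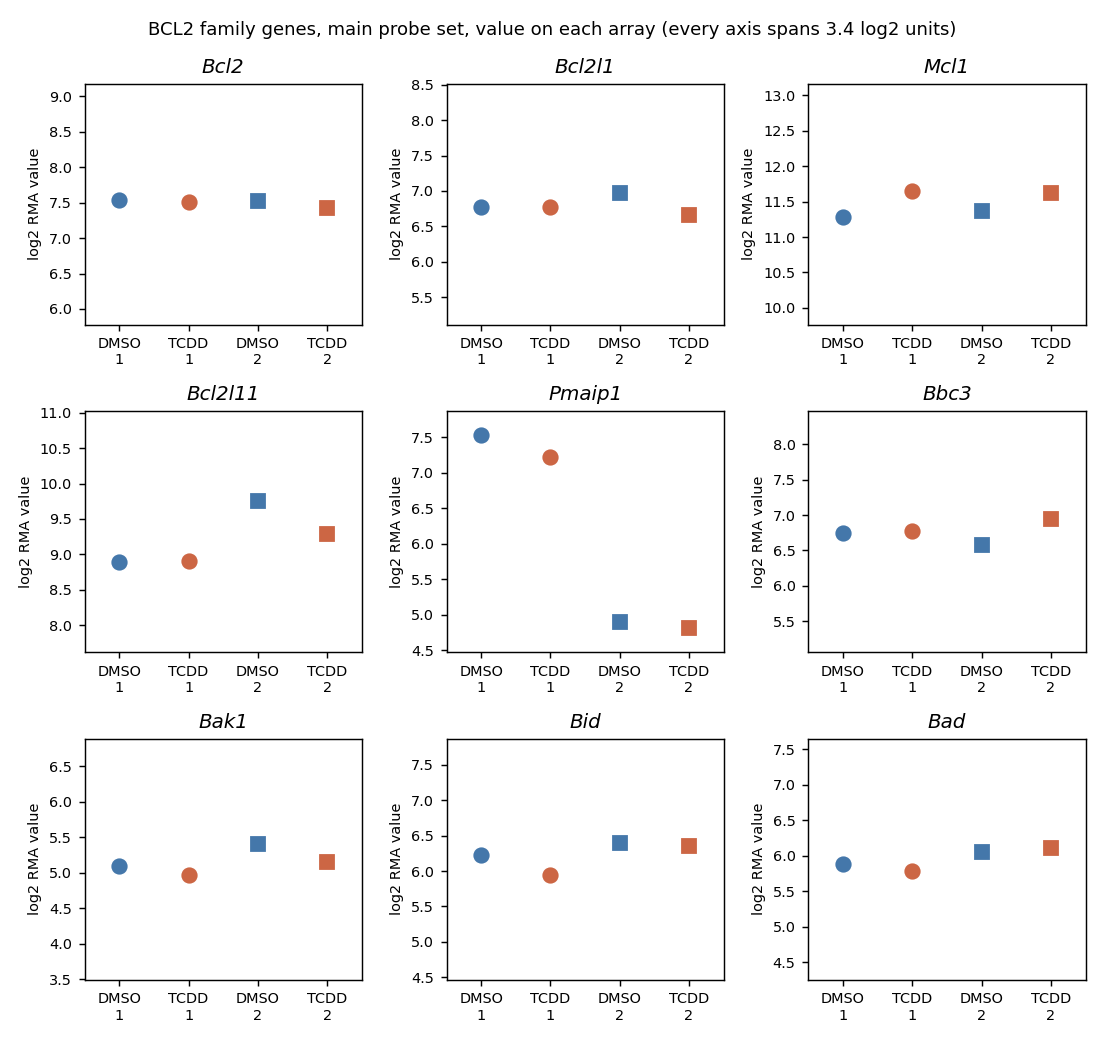
Log2 RMA value (vertical axis, 3.4 log2 units in every panel) of the main probe set of 9 BCL2 family genes on each array (horizontal axis), with DMSO in blue, TCDD in orange, circles for arrays numbered 1 and squares for arrays numbered 2; each point is 1 array. Pmaip1 was at 7.53 and 7.22 on the arrays numbered 1 and at 4.89 and 4.81 on those numbered 2, and the other genes stayed within 0.86 log2 units over the 4 arrays.

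Among the survival members, Bcl2 had the smallest range over the 4 arrays, 0.12. It measured 7.51 and 7.42 in TCDD 1 and 2 and 7.54 and 7.53 in DMSO 1 and 2. Both TCDD values lay below both DMSO values, by little. It differed by -0.07, with limits of -0.34 and 0.20, which as a ratio of TCDD to DMSO are 0.79 and 1.15.

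Bcl2l1, whose main product BCL-XL is another mitochondrial guard, measured 6.77 and 6.66 in the TCDD arrays and 6.78 and 6.97 in the DMSO arrays. The groups did not overlap, and nearly all of the gap came from the arrays numbered 2, where the difference was -0.31 against -0.01 in those numbered 1. Fitted over both, it was -0.16, with limits of -0.48 and 0.16 (limma adjusted p = 0.997). The 3 other probe sets of Bcl2l1 were below the median level, and their differences were 0.005 to 0.08.

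Mcl1, which encodes a short-lived survival protein that T cells depend on, had 6 probe sets, and they divided by type. The main one, 1437527_x_at, measured 11.65 and 11.62 after TCDD and 11.28 and 11.37 after DMSO. Both TCDD arrays were higher, with means of 11.635 ± 0.021 (SD, n = 2) and 11.325 ± 0.064 (n = 2). The difference was 0.31, with limits of 0.04 and 0.58, an unadjusted limma p of 0.033 and an adjusted p of 0.997. It was 0.37 between the arrays numbered 1 and 0.25 between those numbered 2.

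The 2 further probe sets of Mcl1 whose identifiers end in _x_at gave the same picture. Probe set 1456243_x_at was at 11.27 and 11.14 in the TCDD arrays and at 10.83 and 10.90 in the DMSO arrays, so it differed by 0.34. Probe set 1456381_x_at measured 10.78 and 10.52 against 10.09 and 10.28, a difference of 0.465 that was larger in size than that of 97.1% of all probe sets. The ending _x_at is Affymetrix's mark for probe sets with probes that can also match other transcripts.

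The 3 probe sets of Mcl1 without that mark all differed in the other direction. Probe set 1416881_at measured 7.96 and 7.83 after TCDD and 8.29 and 8.14 after DMSO. Here both TCDD arrays were lower, by a difference of -0.32 with limits of -0.63 and -0.01, and an unadjusted limma p of 0.045. Probe set 1448503_at measured 10.55 and 10.06 against 10.48 and 10.42, and 1416880_at measured 9.53 and 9.07 against 9.29 and 9.48. Their groups overlapped, with differences of -0.145 and -0.085. In a grouping by identifier made after the values were seen, the mean of the _x_at probe sets differed by 0.37 and that of the others by -0.18. The probe sets of Mcl1 thus gave no single direction after TCDD.

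**Figure D2:**
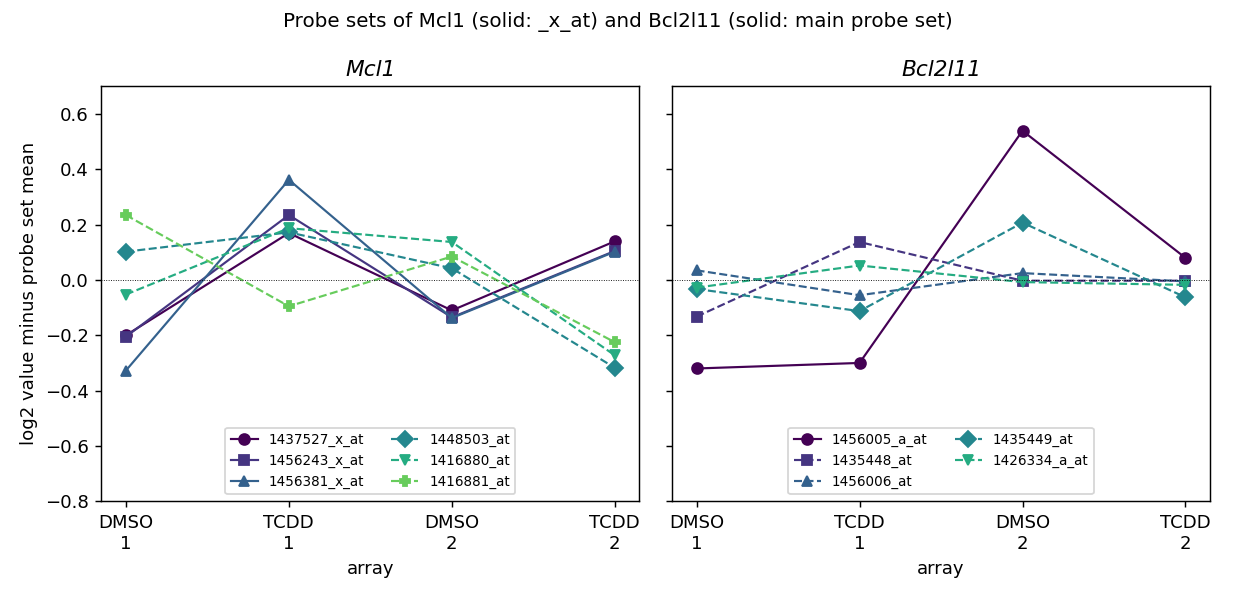
Log2 value minus the mean of its probe set (vertical axis) on each array (horizontal axis) for the 6 probe sets of Mcl1 (left; solid lines are the _x_at probe sets) and the 5 probe sets of Bcl2l11 (right; the solid line is the main probe set); each point is 1 array. The 3 solid Mcl1 lines are higher on both TCDD arrays than on both DMSO arrays. The Bcl2l11 main probe set lies below its 4 companions on both arrays numbered 1 and far above them on DMSO 2, and is close to them on TCDD 2.

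Marker lists were read on the same arrays. For the immediate early and dissociation response, the mean over 25 measured genes was 9.36 and 8.74 in TCDD 1 and 2 and 10.00 and 9.39 in DMSO 1 and 2, a difference of -0.65, with 10 genes lower on both TCDD arrays and 2 higher. The 11 measured T cell and CD8 genes had a mean difference of -0.22, with 4 lower on both TCDD arrays and 0 higher. The 8 dendritic cell markers had 0.30, with 4 higher and 1 lower. Of all genes, 12.0% were lower without overlap with TCDD and 12.9% higher. For 9 neutrophil markers the mean was 5.77 and 6.03 in TCDD 1 and 2 and 5.73 and 6.70 in DMSO 1 and 2, so DMSO 2 alone was high, and the groups overlapped for 8 of the 9. Their part in the Mcl1 differences was not tested.

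Among the BH3-only members, the main probe set of Bcl2l11 had the largest mean difference in the negative direction. It measured 8.91 and 9.29 after TCDD and 8.89 and 9.75 after DMSO. The groups overlapped, since the arrays numbered 1 were alike and DMSO 2 was the highest. The difference was -0.22, with limits of -1.06 and 0.62, and it turned to 0.21 without DMSO replicate 2. The 4 other probe sets of Bcl2l11 differed by between -0.175 and 0.135.

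Bbc3 has 1 probe set, and it was the only member besides Mcl1 with a main probe set higher on both TCDD arrays. It measured 6.78 and 6.95 after TCDD and 6.75 and 6.58 after DMSO. The gap was 0.03 between the arrays numbered 1 and 0.37 between those numbered 2. The difference of 0.20 had limits of -0.13 and 0.53 and did not pass (limma adjusted p = 0.997).

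For Pmaip1 the treatment difference was not resolved in the fit, which left the title number out. The fitted value of -0.195 had limits of -3.24 and 2.85, because the arrays of each group lay far apart by number. Within the numbers it was -0.31 and -0.08, so TCDD was the lower array both times. Without DMSO replicate 1 it turned to 1.125 and without TCDD replicate 2 to 1.01.

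Bid, which carries the death receptor signal to mitochondria, measured 5.94 and 6.35 after TCDD and 6.23 and 6.39 after DMSO, with overlapping groups and a difference of -0.165. Bad, which growth factor signalling holds inactive by phosphorylation, measured 5.79 and 6.11 against 5.89 and 6.06, a difference of -0.025. The other probe sets of Bid and Bad differed by -0.08 and 0.105. Of the pore-forming members only Bak1 is described. It measured 4.97 and 5.15 after TCDD and 5.10 and 5.41 after DMSO, and differed by -0.195 (limits -0.595 and 0.205), and its second probe set differed by -0.01. Both Bak1 probe sets and both Bad probe sets lay below the median level, where RMA values compress differences.

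**Figure D3:**
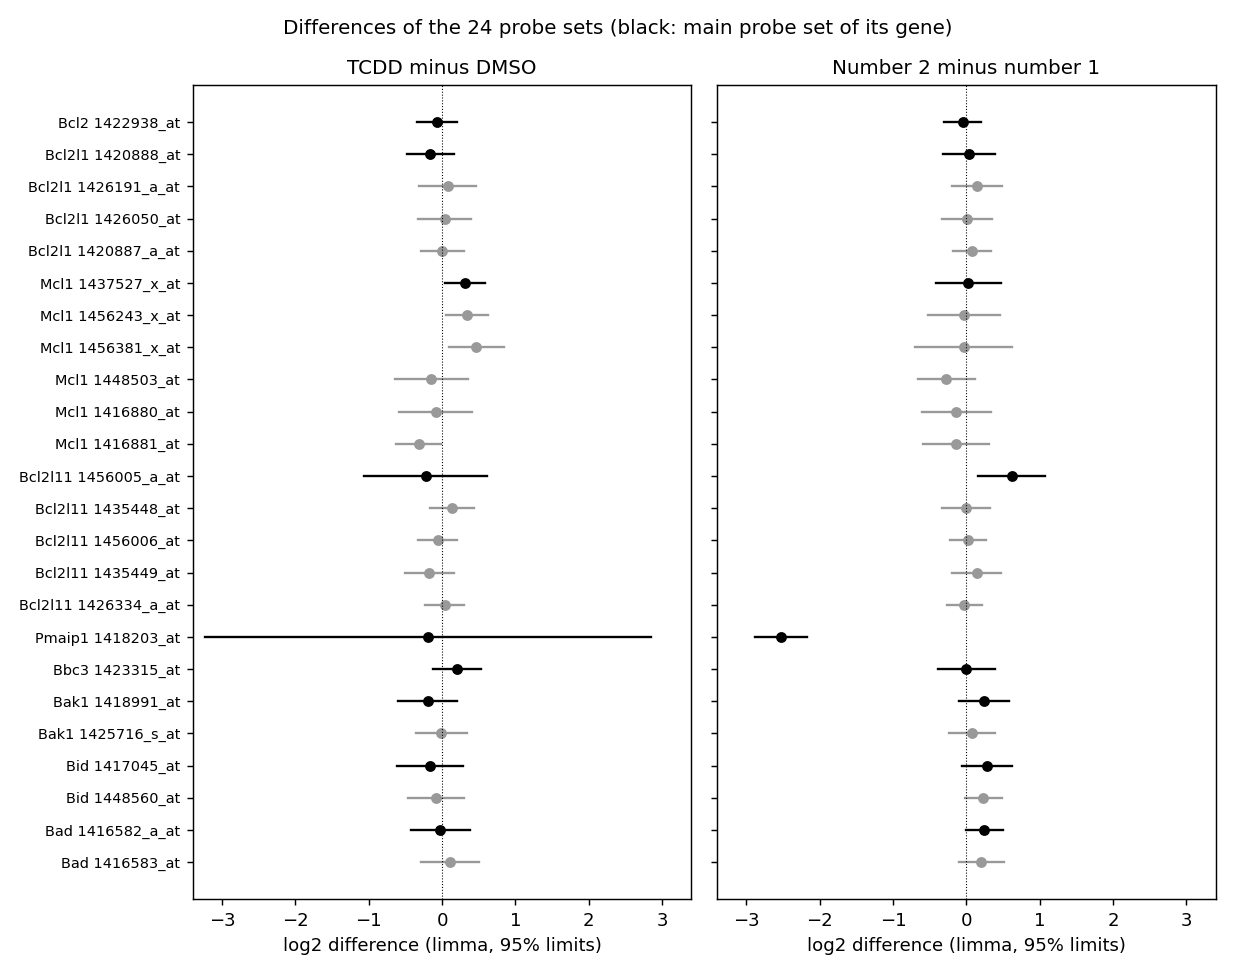
Log2 difference (horizontal axis) with 95% limits of limma's moderated fit for the 24 BCL2 family probe sets (rows), as TCDD minus DMSO (left) and number 2 minus number 1 (right); black marks the main probe set of a gene and grey the others. The limits of Pmaip1 run from -3.24 to 2.85 on the left and from -2.88 to -2.17 on the right.

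Compared by title number, Pmaip1 was the member that differed most. It measured 7.22 and 7.53 on the TCDD and DMSO arrays numbered 1, and 4.81 and 4.89 on those numbered 2. Both arrays numbered 2 were far below both numbered 1, with differences of -2.41 within TCDD and -2.64 within DMSO. The means were 7.375 ± 0.219 (SD, n = 2) and 4.85 ± 0.057 (n = 2), and the difference of -2.525, with limits of -2.88 and -2.17, corresponds to a 5.76-fold lower signal. Only 8 of the 22626 probe sets differed more in size, and Pmaip1 stood at rank 9. The values on the arrays numbered 2 lie below the median level, near the range where RMA compresses differences.

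The Pmaip1 difference did not pass limma over all probe sets (unadjusted p = 1.42e-05, adjusted p = 0.136). It passed with a variance trend and robust fitting (adjusted p = 0.00801) and with 1 mean value per gene (adjusted p = 0.0208), and over all alternatives the adjusted p ran from 0.00801 to 0.997, the upper end without TCDD replicate 1. The comparison called 1 probe set in all, 0.00442% of those tested, that of the G protein regulator gene Rgs1. Its difference was -3.32 (limma adjusted p = 0.0177).

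**Figure D4:**
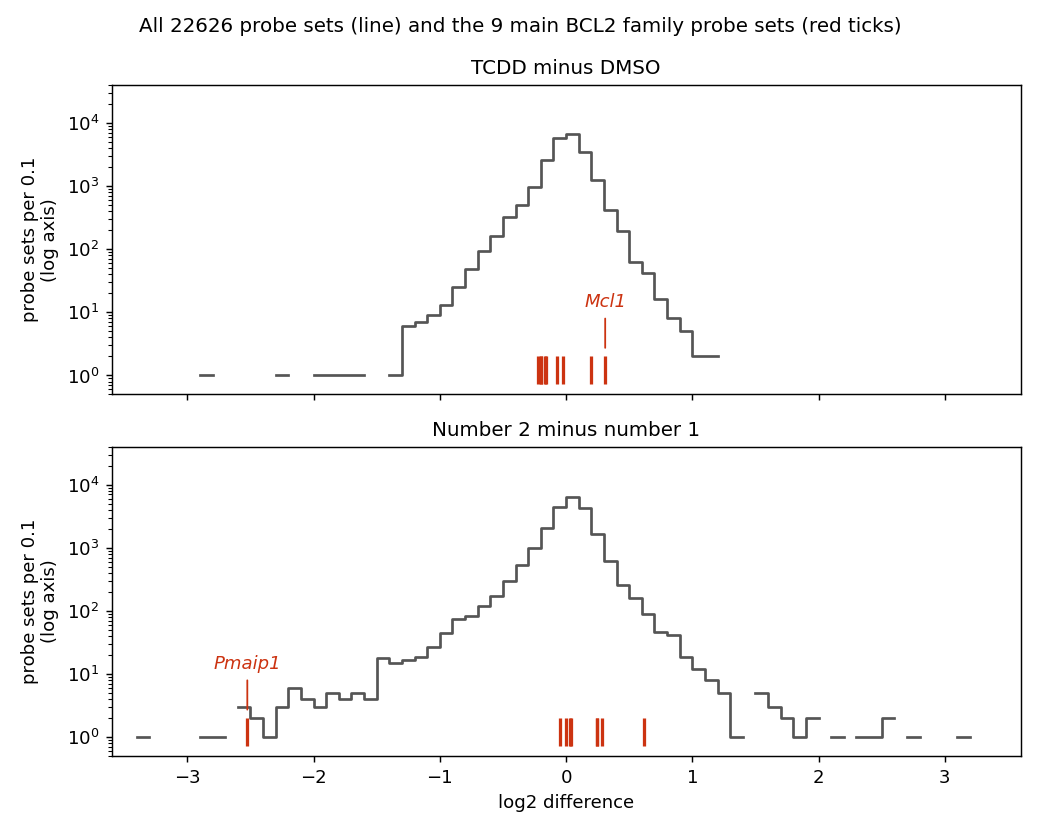
Number of probe sets per 0.1 log2 units (vertical axis, log scale) against the log2 difference (horizontal axis) for all 22626 probe sets (grey line), with red ticks at the main probe sets of the 9 BCL2 family genes, for TCDD minus DMSO (top) and number 2 minus number 1 (bottom). The tick of Pmaip1 at -2.525 lies in the far left tail of the lower panel, and the largest tick in size of the upper panel is Mcl1 at 0.31.

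No other member came near Pmaip1 in that comparison. At an unadjusted limma p under 0.05 there were 2 of the 24 member probe sets, those of Pmaip1 and Bcl2l11, beside 7.46% of all probe sets. The groups did not overlap for 8 of the 24, or 33.3%, with 6 higher and 2 lower on the arrays numbered 2, beside 36.6% of all probe sets. Of all probe sets 22.7% were higher without overlap and 13.9% lower. The median difference over the 9 main probe sets was 0.04, and over all probe sets it was 0.035.

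The main probe set of Bcl2l11, 1456005_a_at, was higher on the arrays numbered 2. It measured 9.29 and 9.75 there in TCDD and DMSO, against 8.91 and 8.89 on the arrays numbered 1. The gap was 0.38 within TCDD and 0.86 within DMSO. The difference of 0.62 had limits of 0.16 and 1.08, an unadjusted limma p of 0.018 and an adjusted p of 0.579. The 4 other probe sets of Bcl2l11 were spread between -0.025 and 0.145, among them 1435448_at, also above the median level, at 8.08 and 7.81 on the arrays numbered 1 and 7.94 and 7.94 on those numbered 2.

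The main probe sets of Bid, Bad and Bak1 were slightly higher on both arrays numbered 2. Bid measured 6.35 and 6.39 there against 5.94 and 6.23, a difference of 0.285 with limits of -0.06 and 0.63, and its second probe set differed by 0.23. Bad measured 6.11 and 6.06 against 5.79 and 5.89, a difference of 0.245 with limits of -0.01 and 0.50, and its second probe set differed by 0.205. The main probe set of Bak1 measured 5.15 and 5.41 against 4.97 and 5.10, a difference of 0.245, and leaving out 1 array at a time gave values from 0.115 to 0.375. Its second probe set differed by 0.08 with overlapping groups. None of the 3 genes passed limma, with adjusted p between 0.677 and 0.767 for the 5 probe sets that did not overlap.

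The survival members differed little by number. Bcl2 differed by -0.05, Bcl2l1 by 0.04 and the main probe set of Mcl1 by 0.03, all with overlapping groups. The other Mcl1 probe sets ranged from -0.275 to -0.03, and the lowest, 1448503_at, had both arrays numbered 2 below both numbered 1. Bbc3 had the same mean of 6.765 in both sets of arrays.

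The genes whose values over the 4 arrays were nearest to those of Pmaip1 were Atf3, Klf6 and Vps37b. Nearness was the Euclidean distance between values centred on the mean of each gene, over 7399 genes above the median level, and is a description with no test. The distances were 0.296 for Atf3, 0.546 for Klf6 and 0.578 for Vps37b. Atf3, a stress-induced transcription factor, measured 8.12 and 8.39 on the arrays numbered 1 and 6.05 and 5.91 on those numbered 2. Klf6, a zinc finger factor, measured 10.69 and 11.07 against 8.51 and 9.06. Vps37b, a subunit of the ESCRT-I sorting complex, measured 10.23 and 9.82 against 7.79 and 7.71. For Bcl2l11 the nearest genes were Kdm6a, Trim34a and Rras2, with distances of 0.054 to 0.089, and for Bid they were Stambp, Pigx and Slpi, with distances of 0.028 to 0.033. With 4 arrays, many genes have nearly the same profile as a gene that varies this little.

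**Figure D5:**
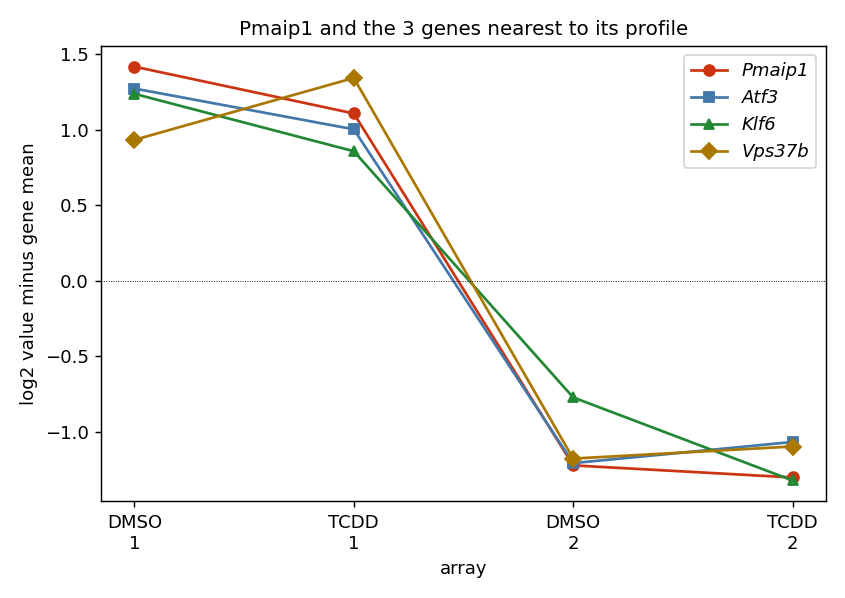
Log2 value minus the mean of the gene (vertical axis) on each array (horizontal axis) for Pmaip1 and the 3 genes nearest to it, Atf3, Klf6 and Vps37b; each point is 1 array. All 4 genes are more than 1.5 log2 units higher on each array numbered 1 than on the array numbered 2 of the same treatment.

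Other lists also differed by number. The immediate early and dissociation list, which holds Atf3 and Klf6, had 11 of 25 measured genes lower on both arrays numbered 2 and 0 higher, and its mean difference was -0.61. Dendritic cell markers were at 6.91 and 6.75 on the TCDD and DMSO arrays numbered 1 and at 6.53 and 6.10 on those numbered 2, with 3 of 8 genes lower on both and 0 higher. Neutrophil markers were at 5.77 and 5.73 against 6.03 and 6.70, with 7 of 9 higher. Of all genes, 14.0% were lower without overlap on the arrays numbered 2 and 22.4% higher. The T cell and CD8 list differed by 0.19, the B cell list by -0.26 and the myeloid list by 0.17. The NK cell list differed by 0.23, the CD4 T cell list by 0.06 and the erythroid and platelet list by 0.10. The B cell list was split, with 4 genes lower without overlap and 5 higher. Those lower were Cd74, H2-Aa, H2-Ab1 and H2-Eb1, by -1.49 to -1.155. Those higher were Ms4a1, Cd79b, Cr2, Blk and Ighm, by 0.05 to 0.49. In the myeloid list 1 gene was lower without overlap and 4 were higher. The part of these lists in the Pmaip1 and Bcl2l11 differences was not tested.

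Around the family, 91 genes of the apoptosis pathway were listed and 80 were measured. With TCDD limma called 0 of the 80, with 1 at an unadjusted p under 0.05, where 2.11% of 12393 genes reached that level. That gene, named after its value was seen, was Ywhab, a 14-3-3 protein gene, which differed by 0.29. The groups did not overlap for 17 of the 80, or 21.3%, with 8 higher and 9 lower, beside 24.9% of all genes (12.9% higher and 12.0% lower). By number limma also called 0, beside 0.00807% of all genes, and 12 were at an unadjusted p under 0.05, of which 11 were lower and 1, Trim17 at 0.28, higher on the arrays numbered 2. That was 15% of the list, where 7.53% of all genes reached the level, 4.22% lower and 3.31% higher. The groups did not overlap for 41, or 51.3%, with 18 higher and 23 lower, beside 36.4% of all genes (22.4% higher and 14.0% lower).

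The list named p53 and FOXO regulators also holds the stress factor genes Atf4 and Ddit3. It had 5 of 9 measured genes lower on both arrays numbered 2 and 0 higher, with a median difference of -0.20. Of all genes, 14.0% were lower without overlap and 22.4% higher. The 5 were Atf4, Ddit3, Mdm4, Cdkn1a and Perp, the last below the median level. Foxo1 and Foxo3 themselves overlapped, and Trp53 was not analysed here. Atf4, the main transcription factor of the integrated stress response, measured 10.84 and 10.95 on the TCDD and DMSO arrays numbered 1 and 9.87 and 9.56 on those numbered 2. Its difference was -1.18 (limma adjusted p = 0.259). Ddit3, which encodes the stress factor CHOP, measured 9.03 and 8.88 against 7.82 and 7.18, a difference of -1.455 (adjusted p = 0.319). Mdm4 and Cdkn1a, named after their values were seen, differed by -0.295 and -0.52. Foxo1 measured 10.44 in DMSO 2 and between 9.25 and 9.78 on the other arrays.

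Caspase inhibitors were lower by number for 3 of 6 genes without overlap and higher for 1, beside 14.0% and 22.4% of all genes. Birc2, which encodes cIAP1, measured 8.52 and 8.10 on the arrays numbered 1 and 6.82 and 7.68 on those numbered 2, a difference of -1.06. Birc3, which encodes cIAP2, differed by -0.69 and Xiap, the direct caspase inhibitor, by -0.25. All 3 had an adjusted p of 0.605 or more in limma.

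Of 13 measured survival cytokine receptor and kinase genes, 4 were lower without overlap on the arrays numbered 2 and 1 was higher. The shares of all genes were 14.0% and 22.4%. The kinase gene Pim1 measured 10.65 and 10.09 against 9.71 and 8.94, a difference of -1.045. Stat5a, which carries the signal of IL-2 and IL-7 receptors, differed by -0.73 and Akt1 by -0.39. With TCDD, Pim1 differed by 0.665 with overlapping groups, and 4 of the 13 genes were lower without overlap and 0 higher, beside 12.0% and 12.9% of all genes.

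Of 15 apoptosome, caspase and mitochondrial release genes, 4 were higher without overlap with TCDD and 1 lower, beside 12.9% and 12.0% of all genes. Htra2 and Endog, both released from mitochondria in dying cells, were higher on both TCDD arrays by 0.265 and 0.245. The channel genes Vdac1 and Vdac3 were also higher on both, by 0.125 and 0.14. The mitochondrial channel gene Vdac2 differed by -0.39 with TCDD, at 8.75 and 8.35 against 8.84 and 9.04. Of 12 death receptor and adaptor genes, Fasl, the ligand of the death receptor FAS, differed by -0.435 by number. With TCDD, the adaptor gene Traf2 differed by 0.29 and the receptor gene Tnfrsf1a by -0.255, both with overlapping groups. Of 15 genes around MCL1 and BIM turnover, Dynll1, a dynein light chain that binds BIM, differed by 0.625 by number, Huwe1, a ubiquitin ligase of MCL1, by -0.405 and Bag6 by -0.39. Other family members above the median level were Bcl2l2 at 0.225, Hrk at 0.085, Bnip3 at 0.075 and Bcl2l14 at 0.095 by number. All but Hrk were higher without overlap on the arrays numbered 2. Counting those below the median level too, 2 of 2 other survival members were higher without overlap. Of 8 other effector and BH3-only members 4 were higher and 1 lower. The shares of all genes were 22.4% higher and 14.0% lower. None passed limma. The 3 listed Bcl2a1 genes had no probe set of their own symbol and were not analysed here.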

How the data were processed

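Gene expression was measured on Affymetrix arrays in 4 samples, 2 TCDD and 2 DMSO. The deposited table holds log2 values that the authors made with RMA, per the submitters' processing notes. The RMA version, its settings and the genome build are not given in the sources used here. That the scale is log2 was inferred from the range of the values, 3.09 to 14.62. Of 22690 probe sets 64 controls were left out. Symbols came from the platform annotation, updated through RefSeq (GRCm38.p6): 20380 probe sets had 1 symbol, 691 several and 1555 none.

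Both comparisons were fitted with limma 3.58.1 in R 4.3.3 (lmFit, eBayes) on all 22626 probe sets, with no covariate or filter, and tested on simulated data. With 2 arrays against 2, the smallest exact two-sided permutation p is 0.333, and no such test is given. The number of arrays limits precision.

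Members and lists were chosen with earlier results of these data known. Genes named from the apoptosis lists are up to 3 per list with the largest difference in either comparison among those above the median level, plus any past the test. Others were named to complete a count or after their values were seen. Nearest genes were found for the 3 members with the largest range. From the marker lists the text gives means, counts and Ebf1 and Ighm as the ends of the B cell list. It also gives the B cell genes without overlap by number, and Cd8a and Cd74, chosen after their values were seen. Alternatives were array centring, a further quantile normalisation, 2 filters on low values, a variance trend, removal of probe sets open to cross hybridisation, gene means, a block and each array left out.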

Additional observations from a re-analysis of the deposited data

How the results depend on the processing

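With 2 arrays a group, only large differences can pass, and probe sets near the low end of RMA values understate differences. For TCDD against DMSO, 0 member probe sets and 0 of all probe sets were called under every alternative run, with each array left out included. By number, the member count of 0 became 1, Pmaip1, with the variance trend and with gene means, where the count over the whole table rose from 1 to 11 and 7. It was 0 of all probe sets with the replicate block (here the treatment as a block) and 0 without any 1 array. The title number as a replicate block left the TCDD comparison at 0 calls, and neither block changed a member call. Over probe sets, the gap between numbers 1 and 2 in TCDD correlated at 0.234 with that in DMSO. The labels do not say that the number pairs arrays. The 9 member probe sets without overlap for TCDD became 2 of 9 genes with gene means and 13 to 22 of 24 with an array left out. By number, the 8 became 4 of 14 with the filter at the median and 11 to 20 with an array left out, where 1 array against 2 overlaps less often by construction. Without probe sets open to cross hybridisation, Mcl1 turned to -0.145 for TCDD and to -0.275 by number, because its main probe set is then another one. By number, it was also -0.01 with median centring and -0.0975 with gene means. Bad turned to 0.04 for TCDD with gene means. With arrays left out, the TCDD differences ran from -0.65 to 0.21 for Bcl2l11, -1.515 to 1.125 for Pmaip1, -0.37 to 0.04 for Bid and -0.185 to 0.135 for Bad. By number they ran from -0.105 to 0.005 for Bcl2, -0.115 to 0.195 for Bcl2l1, -0.155 to 0.215 for Mcl1 and -2.68 to -2.37 for Pmaip1. The causes were not tested beyond this. The filter at the median removes the main probe sets of Bak1 and Bad, which have no value there.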
